A study of Homo sapiens with 2 samples.

Results

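The genes described here are 10 genes best known from embryonic and fetal tissue: the RNA-binding proteins LIN28A and LIN28B, the chromatin proteins HMGA1 and HMGA2, the mRNA-binding proteins IGF2BP1, IGF2BP2 and IGF2BP3, the growth factor IGF2, the membrane protein DLK1 and the transcription factor SOX2. They were chosen by symbol, and all 10 were found among the 57736 genes listed in each table. Poly(A)+ RNA was sequenced from HEK293T, a cell line derived from human embryonic kidney and transformed with adenoviral DNA, in which the SV40 large T antigen is also expressed. Per the labels, the cells had been heated at 43 °C for 20 min and had then recovered at 37 °C for 6 h, and the libraries of both replicates, from separately lysed cells of this 1 line, belonged to this group. The study's text describes a longer heating step than the labels do, and the labels were followed. Untreated cells are not analysed here. The values therefore say nothing of a change with heat shock and give the levels after recovery and their spread between the replicates. Where p-values are given, they compare the libraries and not conditions.

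LIN28A and LIN28B bind the precursors of the let-7 microRNAs and block their maturation, while mature let-7 represses mRNAs that carry matching sites in their 3′ untranslated region (UTR). Many mRNAs of the oncofetal programme, those of HMGA2, LIN28B and the IGF2BP genes among them, are well known let-7 targets, so LIN28 and let-7 oppose each other. HMGA proteins bind AT-rich DNA and bend it, and IGF2BP proteins bind mRNAs, IGF2 mRNA and m6A-modified mRNAs included, and affect their stability, transport and translation.

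The reference sequences that tie these genes together were the let-7 seed and its matches. RefSeq (assembly GRCh38.p14) gave 9 mature 5p names of the let-7 family, all with the same seed at bases 2 to 8. They are shown by 4 members that differ after the seed, with the seed in capitals. The microRNAs themselves were not measured in these libraries.
hsa-let-7a-5p: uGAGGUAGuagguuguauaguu
hsa-let-7b-5p: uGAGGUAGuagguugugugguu
hsa-let-7g-5p: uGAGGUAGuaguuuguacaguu
hsa-miR-98-5p: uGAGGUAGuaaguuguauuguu

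The complement of this seed, CTACCTC, was searched on the sense strand of the 3′ UTR of 1 reference transcript per gene (GENCODE 44 on GRCh37). It was found 16 times in 7 of the 10 genes. LIN28B, HMGA2 and IGF2BP1 each held 4 matches, and LIN28A, HMGA1, IGF2BP2 and IGF2BP3 held 1 each. IGF2, DLK1 and SOX2 held 0, which says only that these letters were not in these UTRs. Of all 19367 3′ UTRs read in the same way, 9.77% held at least 1 match and 12 held at least 4. The 9 matches that were followed by an A and the single match of HMGA1 are shown 5′ to 3′ as DNA with up to 30 bases, the match in capitals.
LIN28A site 1: ttggagtgcacagcctattgaaCTACCTCa
LIN28B site 1: ttcctttacccggttgcaaagtCTACCTCa
LIN28B site 3: ttactctgtttacagcaaaaggCTACCTCa
HMGA1 site 1: ccatttttcctctgttcacaaaCTACCTCt
HMGA2 site 1: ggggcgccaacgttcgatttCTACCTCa
IGF2BP1 site 1: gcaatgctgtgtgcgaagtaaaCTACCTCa
IGF2BP1 site 2: tgggaaccagcagtgctagtaaCTACCTCa
IGF2BP1 site 3: gctacgagtataaatggattaaCTACCTCa
IGF2BP2 site 1: cgagaaaaacacacagaagaagCTACCTCa
IGF2BP3 site 1: ttaaacgtgcatttttactcaaCTACCTCa

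On GRCh37 the LIN28A window was at chr1:26753832-26753861 in exon 4, and the LIN28B windows were at chr6:105526680-105526709 and chr6:105529289-105529318, also in exon 4. The HMGA1 window was at chr6:34213599-34213628 in exon 6, and that of HMGA2 was at chr12:66357073-66357100 in exon 5. The windows of IGF2BP1 were at chr17:47128416-47128445, chr17:47131053-47131082 and chr17:47131707-47131736 in exon 15. Those genes are transcribed from the plus strand, whereas IGF2BP2 at chr3:185362008-185362037 (exon 16) and IGF2BP3 at chr7:23351414-23351443 (exon 15) are on the minus strand. Every window lay in the 3′ UTR of the last exon. The first matches of HMGA2 and LIN28B began 21 and 44 bases after the stop codon, and the other 14 began 560 or more bases from it. Among UTRs of similar length (within a factor of 0.8 in either direction), at least 4 matches were found in 0.183% for LIN28B, 0.0822% for HMGA2 and 0.508% for IGF2BP1. A single match was common at the length of the other genes, from 8.86% of UTRs for HMGA1 to 16.6% for LIN28A.

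**Figure D1:**
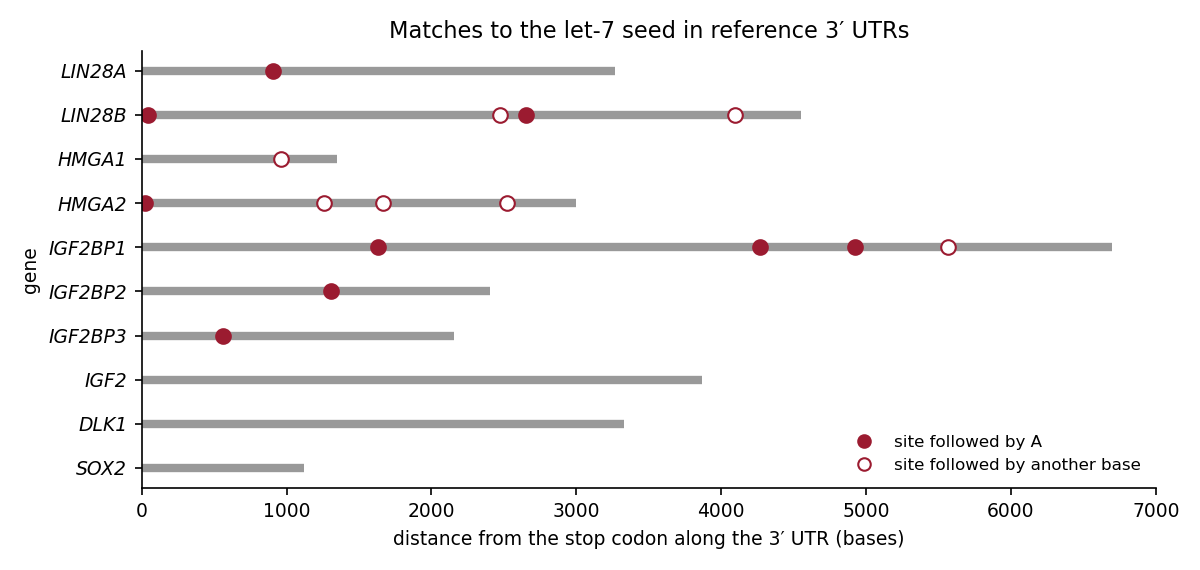
Positions of the seed matches along the 3′ UTR of each gene's reference transcript, in bases from the stop codon. Bars show the UTR length, filled circles matches followed by A and open circles other matches: LIN28B, HMGA2 and IGF2BP1 carry 4 each, and IGF2, DLK1 and SOX2 carry 0.

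The depth was 22529828 expected counts in replicate 1 and 26890199 in replicate 2. Expected counts are reads per gene after multi-mapped reads have been shared among genes, and TPM, a unit of transcript abundance, are these counts scaled to transcript length and to a fixed total. Levels of different genes were compared only in TPM. A gene was called detected where its TPM reached 1 in each library, which held for 26.3% of all listed genes and 63.8% of protein-coding genes. Of the 10 genes, all protein-coding, 8 were detected, and LIN28A and DLK1 were not. Defining markers of differentiated kidney epithelium were mostly low, with 5 of 15 detected (KRT18, PODXL, KRT8, PAX2 and LRP2) and CDH16, UMOD and AQP2 among those listed at 0. Of the neuronal markers 6 of 8 were detected and of the endothelial markers 0 of 3. The heat shock proteins HSPA8, HSPA1B, DNAJB1 and HSPH1 were all detected, with mean TPM from 48.2 (HSPH1) to 1178 (HSPA8).

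The mean TPM of the 10 genes ran from 855 (HMGA1) down to 0 (DLK1). The summed TPM was 1292 in replicate 1 and 1266 in replicate 2, of which HMGA1 alone made up 70.2% and 63.4%. In order of mean TPM, HMGA1 was followed by IGF2BP1, IGF2BP2, HMGA2, IGF2BP3, LIN28B, IGF2, SOX2, LIN28A and DLK1. Neighbours were called apart where their 95% credibility bounds, deposited with each TPM, did not overlap in either library and all values of one were above those of the other. This held for 6 of the 9 neighbouring pairs. HMGA2 and IGF2BP3 were not apart, nor were LIN28B and IGF2, nor LIN28A and DLK1.

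**Figure D2:**
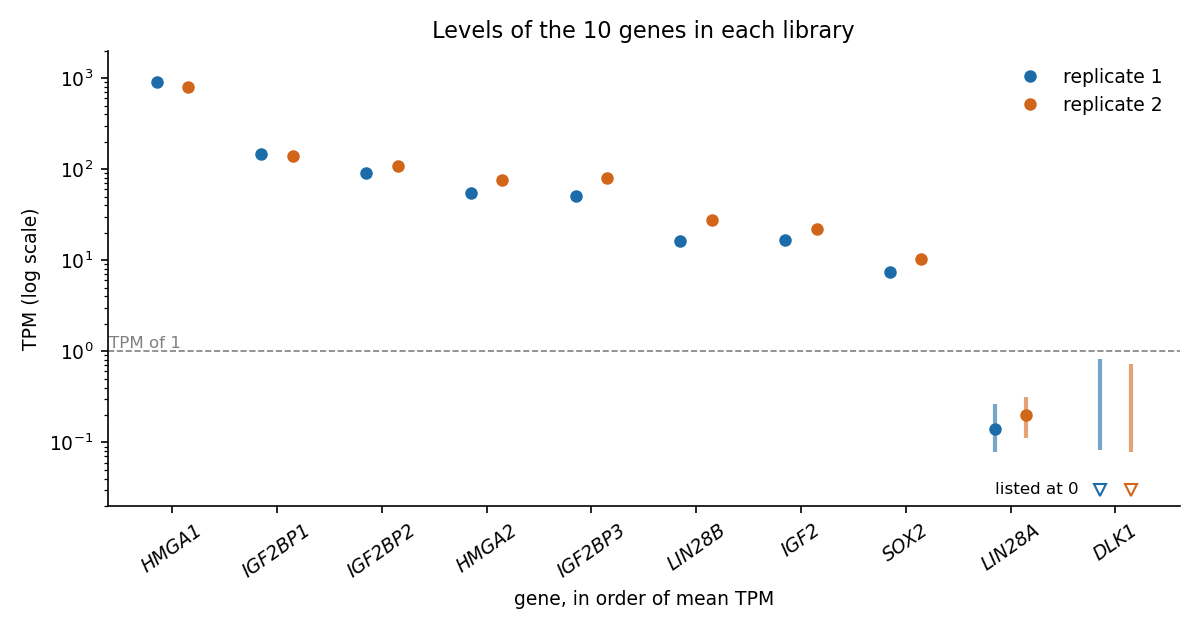
TPM of each gene in replicate 1 (blue) and replicate 2 (orange) on a log axis, with vertical lines for the deposited 95% credibility bounds, which are shorter than the points for most genes. HMGA1 stood at 907 and 802, LIN28A lay under the dashed line at a TPM of 1, and DLK1 was listed at 0 in both libraries (triangles).

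LIN28B (ENSG00000187772, chr6:105384491-105531207, plus strand) was the LIN28 gene that was expressed. It had 1612 counts (TPM 16.2) in replicate 1 and 3136 counts (TPM 27.7) in replicate 2. Its mean TPM was 21.9 ± 8.1 (SD, n = 2), above that of 61.4% of detected genes. The paralogue LIN28A (ENSG00000131914, chr1:26737308-26756219, plus strand) had 10 counts (TPM 0.14) in replicate 1 and 14 counts (TPM 0.2) in replicate 2. The exact 95% Poisson intervals of these counts were 4.8 to 18.4 and 7.65 to 23.5, which cover counting error only. LIN28B thus exceeded LIN28A 116-fold in replicate 1 and 138-fold in replicate 2, and the credibility bounds allowed folds from 56.5 to 247. No 50-base sequence was shared in the same orientation between the reference transcripts of these paralogues. Reads of this length that match LIN28B without mismatch therefore had no such match to LIN28A. The opposite orientation was not compared.

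HMGA1 (ENSG00000137309, chr6:34204650-34214008, plus strand) was the most abundant of the 10 genes. It had 21500 counts (TPM 907) in replicate 1 and 21568 counts (TPM 802) in replicate 2, a mean TPM of 855 ± 74 (SD, n = 2) that was above 99.2% of detected genes. These values lay slightly above the deposited credibility bounds, 860 to 897 in replicate 1 and 767 to 800 in replicate 2. HMGA2 (ENSG00000149948, chr12:66218240-66360071, plus strand), the paralogue with 4 seed matches, had 2046 counts (TPM 55.4) and 3140 counts (TPM 76.4). Its mean TPM of 65.9 ± 15 (SD, n = 2) was above 85.3% of detected genes. HMGA1 exceeded HMGA2 16.4-fold in replicate 1 and 10.5-fold in replicate 2, so the size of this difference varied between the libraries while its direction did not.

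All 3 IGF2BP genes were expressed together. IGF2BP1 (ENSG00000159217, chr17:47074747-47133507, plus strand) had 13823 counts (TPM 145) in replicate 1 and 15595 counts (TPM 140) in replicate 2. IGF2BP2 (ENSG00000073792, chr3:185360918-185542830, minus strand), the paralogue that adult tissues also express, had 4377 counts (TPM 92.0) and 5580 counts (TPM 108). IGF2BP3 (ENSG00000136231, chr7:23349828-23510110, minus strand) had 1917 counts (TPM 51.2) and 3131 counts (TPM 79.2). The mean TPM were above those of 93.7%, 90.7% and 85.1% of detected genes. The order of the paralogues was the same in both libraries, with the gaps narrower in replicate 2: IGF2BP1 exceeded IGF2BP2 1.58-fold and 1.29-fold, and exceeded IGF2BP3 2.84-fold and 1.76-fold.

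As a share of the summed TPM of the family, IGF2BP1 took 50.4% in replicate 1 and 42.7% in replicate 2, IGF2BP2 took 31.9% and 33%, and IGF2BP3 took 17.7% and 24.2%. The means were 46.6 ± 5.4%, 32.4 ± 0.82% and 21.0 ± 4.6% (SD, n = 2). As shares of expected counts, which are not scaled to length, IGF2BP1 had 66.4% and IGF2BP3 11.2%. The length by which the authors' quantifier scaled a gene, weighted by the abundance of its transcripts, differed between the paralogues and from that of their reference transcripts. It was 5260 and 5424 bases for IGF2BP1, against 8796 bases for the reference transcript. For IGF2BP2 it was 2657 and 2537 bases against 4283, and for IGF2BP3 2100 and 1952 bases against 4274.

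Length also entered the levels of the HMGA genes. The deposited length of HMGA2 was 2073 and 2027 bases, 50.4% and 49.2% of its reference transcript of 4117 bases, and that of HMGA1 was 1348 and 1343 bases against 1920. LIN28B, with 5505 bases in both libraries, stood at 101% of its reference. Scaling every gene by its reference transcript instead, a choice made after the data were seen, kept the order of all 10 genes, with HMGA1 at a mean TPM of 592, IGF2BP1 at 86.3, IGF2BP2 at 60.1, HMGA2 at 32.4 and IGF2BP3 at 30.3. The deposited lengths are averages over transcripts and do not tell which of the 4 seed matches the HMGA2 transcripts carried.

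**Figure D3:**
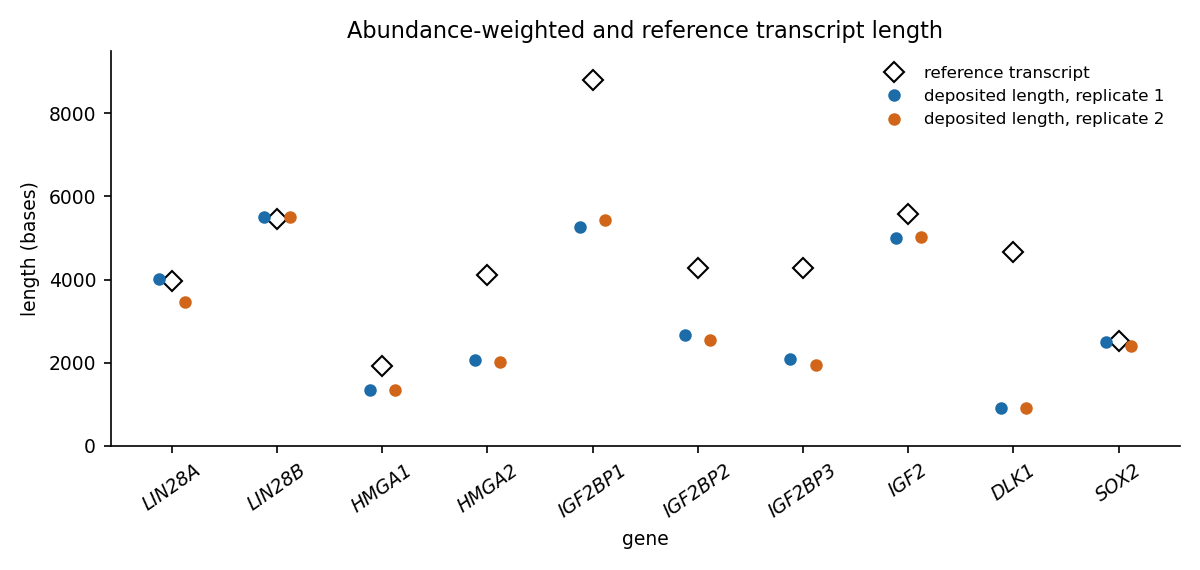
Deposited abundance-weighted length of each gene in replicate 1 (blue) and replicate 2 (orange), in bases, beside the length of its reference transcript (diamonds). HMGA2, IGF2BP1, IGF2BP2 and IGF2BP3 lie well under their reference, LIN28B and SOX2 on or near it, and the DLK1 length rests on 0 counts.

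IGF2 (ENSG00000167244, chr11:2150342-2179621, minus strand) encodes a fetal growth factor that is expressed from the paternal allele in most tissues. It had 1510 counts (TPM 16.8) in replicate 1 and 2243 counts (TPM 21.8) in replicate 2, a mean TPM of 19.3 ± 3.6 (SD, n = 2) above 57.9% of detected genes. Its level was in the same range as that of LIN28B, 16.2 and 27.7, and the order of the pair turned between the libraries. SOX2 (ENSG00000181449, chr3:181429713-181432224, plus strand), a transcription factor of pluripotent and neural progenitor cells, had 331 counts (TPM 7.39) and 509 counts (TPM 10.4), above 38.4% of detected genes in the mean. DLK1 (ENSG00000185559, chr14:101192042-101204561, plus strand), a paternally expressed inhibitor of adipocyte differentiation, had 0 counts in both libraries. A count of 0 allows up to 3 counts (a one-sided 95% limit), a TPM of 0.189 in replicate 1 and 0.166 in replicate 2 at the deposited length, and the deposited upper bounds were 0.813 and 0.723.

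The replicates were then compared gene by gene, with an exact two-sided binomial test of the counts after TMM scaling and Benjamini-Hochberg adjustment over the 19714 genes whose counts summed to 10 or more. Of the 9 genes that could be tested, all but DLK1, 7 differed between the libraries, where 43.1% of all genes tested did. When only genes whose counts summed to 100 or more were tested, 7 of 8 differed, beside 8086 of all 13840. LIN28B, HMGA2, IGF2BP3, IGF2 and SOX2 were higher in replicate 2, as were 20.9% of all genes tested, and HMGA1 and IGF2BP1 were higher in replicate 1, as were 22.2%. LIN28B had the largest log2 ratio, 0.66 (95% interval 0.57 to 0.74, adjusted p = 2.75e-50). However, 9.55% of the genes whose counts summed to 100 or more had a ratio at least as large in size. IGF2BP3 had a log2 ratio of 0.40 (0.32 to 0.49, adjusted p = 2.9e-21), and HMGA1 one of -0.30 (-0.33 to -0.27, adjusted p = 1.69e-100). The ratios of HMGA2, SOX2 and IGF2 were 0.31, 0.32 and 0.27, and that of IGF2BP1 was -0.13. For IGF2BP2 the ratio was 0.05 (-0.01 to 0.10, adjusted p = 0.204), a call that changed with the scaling (adjusted p = 0.00374 with library totals), and for LIN28A it was 0.16 (-1.09 to 1.51, adjusted p = 0.916). The median was 0.27 over the 9 genes and 0.00 over all genes tested.

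This test allows only for counting error, and the libraries differed by more than that across the genome. When edgeR's exact test was given a biological coefficient of variation (the spread between replicates beyond counting error) of 0.1, LIN28B alone of the 9 genes still differed (adjusted p = 0.0287, against 7.24% of all genes called). At 0.2, close to the 0.201 that edgeR estimated from both libraries as the common value, the same test called 0 of the 9 genes, 0 had an unadjusted p under 0.05, and 0.781% of all genes were called. At that spread, neither the TPM of 907 against 802 for HMGA1 nor that of 51.2 against 79.2 for IGF2BP3 was called different. The 0.201 was estimated from the same libraries that the test compares, so it includes their difference across the genome. A gene not called at 0.2 was therefore not shown to be equal in both.

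Across genes, the log2 ratio between the libraries fell with the GC content of the transcripts (Pearson's r = -0.64 over 13544 genes whose counts summed to 100 or more, which share the same pair of libraries). Among the 10 genes, the GC content ran from 40.8% (LIN28B) to 61.6% (HMGA1), the genes with the highest and the lowest ratio. Of the genes within 2 percentage points of the GC content of LIN28B 89.5% were higher in replicate 2, with a median log2 ratio of 0.35, and within 2 points of HMGA1 10.8% were, with a median of -0.25. With the trend removed, the ratio of LIN28B was 0.28, that of HMGA1 -0.05 and that of IGF2BP1 -0.01, and the binomial test called 7 of the 9 genes, 6 of them higher in replicate 2, beside 26.8% of all genes. IGF2BP1 was no longer called (adjusted p = 0.753) and IGF2BP2 was (adjusted p = 0.000161). IGF2 was high within its GC class: it had a log2 ratio of 0.27 at a GC content of 59.2%, where the median was -0.23, the central 95% of genes ran from -0.53 to 0.29 and 97.0% had a lower ratio. SOX2 was likewise above 95% of the genes of similar GC content.

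**Figure D4:**
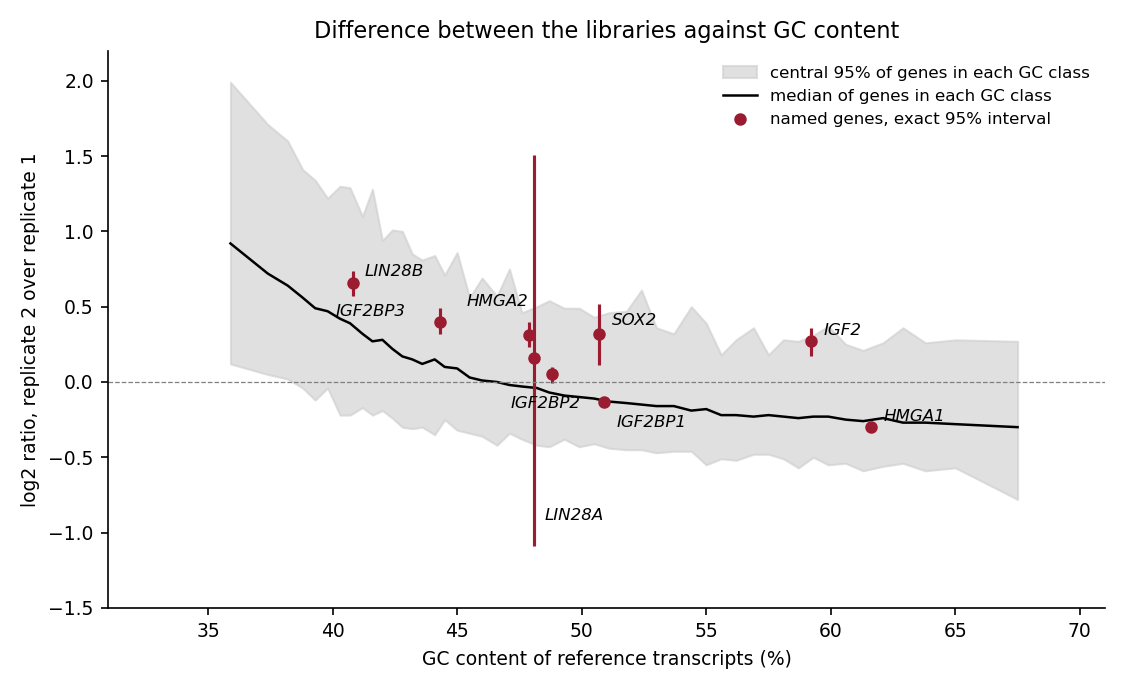
Log2 ratio of replicate 2 over replicate 1 against the GC content of the transcripts, for 9 of the genes (points with exact 95% intervals; DLK1 had no counts), with the median (line) and central 95% (grey) of the genes whose counts summed to 100 or more, in 50 GC classes. LIN28B at 40.8% GC and HMGA1 at 61.6% GC lie on the side of 0 where most genes of similar GC content lie.

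Genes that overlap these loci or copy them could take or give reads, since the sources used here do not say whether strand was used in counting. IGF2BP3 overlaps MALSU1, a mitochondrial ribosome assembly gene on the opposite strand at chr7:23338358-23351348, and 16.6% of the 50-base sequences of IGF2BP3 transcripts also occur in MALSU1. MALSU1 had 582 and 647 counts, and the posterior SD of the IGF2BP3 count, the deposited measure of how freely reads moved between genes, was 6.18 and 7.46 reads. The seed match of IGF2BP3 printed above lies outside MALSU1. For IGF2, 19.5% of such sequences occur in INS-IGF2, a readthrough gene on the same strand, which was listed at 0 in both libraries. The 8 HMGA1 pseudogenes summed to 66.5 and 98.5 counts, 0.309% and 0.457% of the HMGA1 count, with HMGA1P8 the highest at 41 and 57.3 counts. Pseudogenes were searched by symbol only, which misses copies without such a name. Of the 50-base sequences of IGF2BP2, 5.74% occur in 3 other genes, and of those of IGF2BP3 21.8% occur in any other gene, MALSU1 included. The counts of such unnamed copies are not given here. No pair of the 10 genes shared a 50-base sequence in the same orientation, and the opposite orientation was not compared between them.

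The other overlapping genes had few counts. LIN28B-AS1 had 0 counts in both libraries, HMGA2-AS1 had 3 and 18, IGF2-AS 8 and 9, IGF2BP2-AS1 5 and 7, and SOX2-OT, the long noncoding RNA in whose locus SOX2 lies, 2 and 9. AC105030.1, annotated as a microRNA gene inside IGF2BP1, had 27.9 and 10.8 counts with posterior SDs of 7.23 and 6.86 reads, and at its short length a TPM of 41.4 and 14.1. ENSG00000250838, a noncoding gene at the start of IGF2BP1, had 21.0 and 16.0 counts (TPM 3.04 and 2.03). In all, overlapping genes came to at most 1.77% of the counts of the gene they overlap, except for IGF2BP3, where they came to 30.5% and 20.8%.

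The genes around LIN28 and let-7 were expressed as well. All 12 genes listed for let-7 processing and the LIN28 pathway were detected, with HNRNPA1 (TPM 1400 and 1526) and KHSRP (716 and 626), which bind let-7 precursors, and the microRNA processing nuclease DROSHA (188 and 201) the highest. TRIM71, itself a let-7 target, was the lowest, at 2.84 and 2.78. Of the 12, 7 differed between the libraries by the binomial test, beside 43.1% of all genes tested, and 0 at a coefficient of variation of 0.2, beside 0.781%. All 12 had 100 or more counts in sum, and when only such genes were tested 8086 of all 13840 differed by the binomial test. ZCCHC6 (also named TUT7), one of the enzymes that add uridines to let-7 precursors, had the largest ratio, from TPM 13.4 to 32.0 (log2 ratio 0.98, and 0.56 with the GC trend removed). Of 17 well known let-7 target genes 16 were detected, with MYC (277 and 263), CDC34 (96.0 and 86.1) and CDC25A (70.5 and 68.9) the highest. MYCN, at 0.62 and 1.0, was the exception. CDK6 had the largest ratio in that list, from 21.7 to 37.4 (log2 ratio 0.92).

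Partners of the IGF2BP proteins and genes of the m6A machinery were all detected, 16 of 16. The highest were the RNA-binding proteins YBX1 (TPM 2276 and 2137), HNRNPU (787 and 960) and SYNCRIP (125 and 162). Of these genes 13 differed between the libraries by the binomial test and 0 at a coefficient of variation of 0.2, again beside 43.1% and 0.781% of all genes tested. All 16 had 100 or more counts in sum, where the binomial test called 8086 of all 13840 genes. The median log2 ratio was 0.10, and -0.03 with the GC trend removed. METTL14, a subunit of the m6A methyltransferase, had the largest ratio, from 6.19 to 14.3 (log2 ratio 0.83, and 0.28 with the GC trend removed).

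In the IGF axis 9 of 14 genes were detected. IGF2 was measured beside its signalling receptor IGF1R (TPM 56.9 and 57.2), IGFBP2 (83.8 and 66.2) and IGFBP5 (36.4 and 34.0), which bind IGFs outside cells. IGF2R, the receptor that clears IGF2, was at 27.3 and 26.6. The other ligands were not detected: IGF1 had 2 and 4 counts, and INS had 0, as did IGFBP1. Of the 9 detected genes, IGFBP2 had the largest ratio (log2 ratio -0.45). IGFBP3, which was not detected, had a log2 ratio of -0.48 on 8 and 7 counts.

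Of 18 imprinted genes 7 were detected, 38.9%, with GNAS (TPM 1046 and 1017), PLAGL1 (46.3 and 61.4) and GRB10 (29.1 and 27.6) the highest. H19, the maternally expressed neighbour of IGF2, was at 1.96 and 2.77. The other genes of the DLK1 locus were at or near 0, as DLK1 was: RTL1, MEG8 and MEG9 had 0 counts, MEG3 had 1 and 2, and DIO3 had 8 and 4. SNRPN and NDN were also listed at 0, and SNRPN may share reads with genes that overlap it. KCNQ1OT1, a long antisense RNA, had 1515 and 5787 counts (log2 ratio 1.63), and it alone of the listed genes still differed at a coefficient of variation of 0.2 (edgeR exact test, adjusted p = 0.0225). Its TPM was only 0.91 and 3.04.

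Pluripotency genes and other genes of the SOX family were detected in part. Of 19 pluripotency and SOX genes 9 were detected, KLF4, SALL4 and ESRRB among them. SOX4 (TPM 38.8 and 41.9), DNMT3B (30.7 and 29.6) and UTF1 (17.8 and 13.8) were the highest. Of the 9 detected genes, UTF1 differed most between the libraries (log2 ratio -0.49). SOX3, which was not detected and had only 31 and 17 counts, had a larger ratio (log2 ratio -1.15, binomial test, adjusted p = 0.0215). POU5F1, which shares reads with near-identical copies, was at 1.02 and 1.11, and NANOG had 1.17 and 0 counts. TDGF1, SOX11 and SOX17 had 0 counts, and SOX1 had 1.01 in each library.

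**Figure D5:**
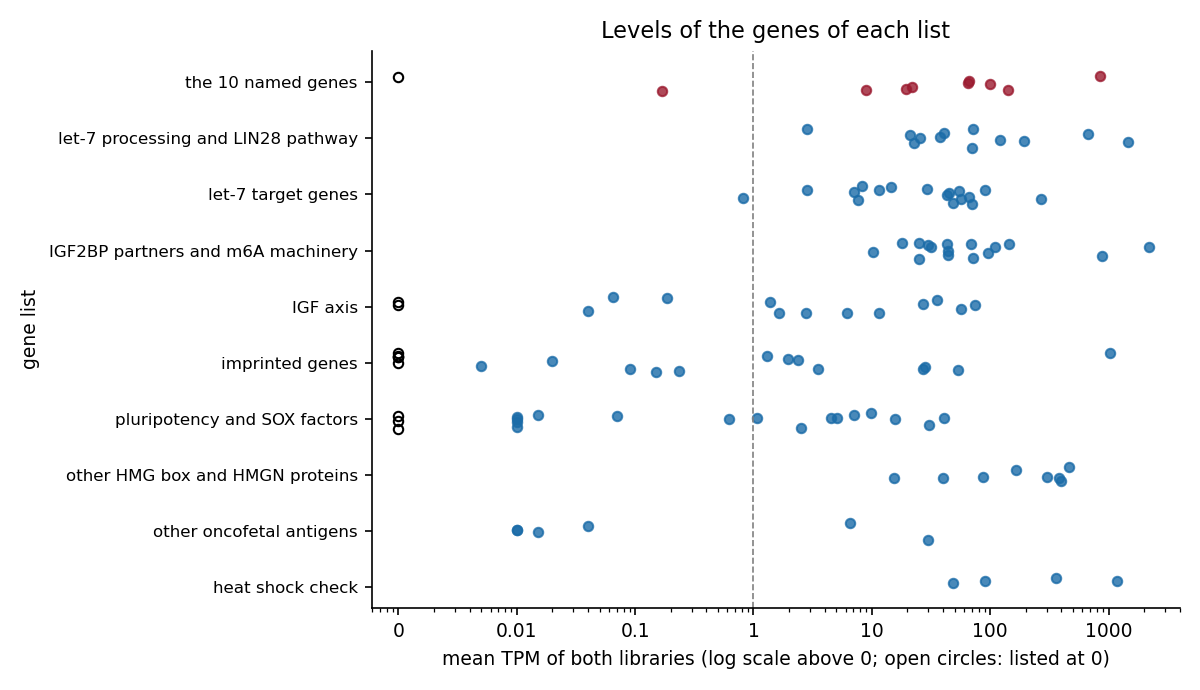
Mean TPM of both libraries on a log axis for the 10 genes (red) and for the genes of each list (blue), with genes listed at 0 as open circles and a dashed line at a TPM of 1. The lists of let-7 processing genes and of IGF2BP partners lie wholly above 1, and the imprinted and pluripotency lists are split.

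The HMGA genes were set beside the other HMG families, which are unrelated in sequence but also bind DNA or nucleosomes. All 8 genes were detected, with HMGN2 (TPM 489 and 438), HMGB1 (337 and 456) and HMGN1 (355 and 412) the highest, so HMGA1 at 907 and 802 exceeded each of them in both libraries. HMGN5 had the largest ratio, from 20.0 to 59.2 (log2 ratio 1.13, and 0.53 with the GC trend removed). Of 6 other oncofetal antigens, GPC3 (31.2 and 28.6) and TPBG (6.6 and 6.5) were detected, and AFP, CEACAM5, ALPP and ALPPL2 had between 0 and 2 counts in a library. GPC3 had the largest ratio of that list (log2 ratio -0.24).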

How the data were processed

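The authors sequenced poly(A)+ RNA (50 bp reads, HiSeq) from both replicates. Per the labels, Trimmomatic 0.36, STAR 2.6.1c and RSEM 1.3.1 were used with hg19, whereas the study's methods name featureCounts with Ensembl 87; the deposited columns are those that RSEM writes. The expected counts deposited by the authors share multi-mapped reads among genes, and in the TPM and FPKM deposited by the authors they are divided by length and by the library's total. The credibility bounds of TPM and the posterior SDs of counts were deposited as scores of RSEM's sampling. A table of the whole series was not used. The labels call the molecule genomic DNA. Genes were named through GENCODE release 44 on GRCh37 (96.1% matched), older symbols through RefSeq synonyms. NEFL and PECAM1 were not matched.

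Expected counts were rounded for the exact binomial test (edgeR 4.0.16 TMM over genes with 10 or more counts in sum, DESeq2 1.42.0 size factors as an alternative, scipy 1.17.1). Ratios used a pseudocount of 0.5 count, and ratios within a family a pseudocount of 0.01 TPM. The GC trend was the median in 50 classes. The edgeR exact test was run on the same rounded counts. Scripts were tested on simulated data.

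The members and lists were chosen with earlier results of these data known. Named in each list were the 3 genes of highest TPM, those with 0 counts and the gene of largest ratio among those with 100 or more counts; further list genes (TRIM71, MYCN, IGF1R, IGF2R, IGF1, H19, MEG3, DIO3, POU5F1, NANOG, SOX1 and the undetected antigens among them) were named after their values were seen. Some genes that meet this rule are not reported here.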

Additional observations from a re-analysis of the deposited data

How the results depend on the processing

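With a single group of 2 libraries no condition could be tested, and an n of 2 limits every SD. No paired analysis was possible because the labels give 1 group, and leaving out a replicate gives no value for the test between libraries. Of the 10 genes, 8 were detected at a TPM of at least 5, by FPKM, CPM or the lower credibility bound, and in each replicate alone, and 9, LIN28A included, at a TPM of at least 0.1. Some list counts moved more. At a TPM of at least 5, the imprinted genes detected fell from 7 to 4 and the pluripotency and SOX genes from 9 to 5. Fibroblast markers went from 2 to 1 at that threshold and to 5 at a TPM of at least 0.1. Endothelial markers went from 0 to 1 at a TPM of at least 0.1 and by CPM. The count of 7 genes that differed between the libraries became 1 and 0 at assumed coefficients of variation of 0.1 and 0.2; with library totals, and with TMM over all listed genes (added after seeing the data), it was 8. No log2 ratio changed sign under an alternative. The log2 ratio of LIN28B over LIN28A, 6.90, was 7.57 in expected counts, 6.69 with the posterior mean TPM, and 6.31 and 4.25 with 0.1 and 1 added to TPM. That of HMGA1 over HMGA2, 3.71, was 3.09 in expected counts and 4.21 with reference transcript lengths (also added after seeing the data). In expected counts, IGF2BP1 over IGF2BP2 was 1.57 rather than 0.52, IGF2BP1 over IGF2BP3 2.58 rather than 1.16, and IGF2BP2 over IGF2BP3 1.01 rather than 0.65, the last also 1.01 with reference lengths. The IGF2BP shares were 66.4%, 22.4% and 11.2% in expected counts, which leave out length, and that of IGF2BP2 was 34.0% with reference lengths. All these ratios kept their direction, and with reference lengths the order of the 10 genes was that of the main TPM. The order was not recomputed under the other settings.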

Other observations

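The 3′ UTRs with at least 4 matches to the let-7 seed belonged to 12 genes. LIN28B, HMGA2 and IGF2BP1, already reported above as detected, were among them, and 9 were other genes. All 12 were detected in both libraries, beside 63.8% of all protein-coding genes. Whether this share differs from that of protein-coding genes was not tested. The 12 genes were looked up after the matches had been counted. TRIM71, an RNA-binding protein and ubiquitin ligase of early development, had 6 matches and a TPM of 2.84 and 2.78. NR6A1, a nuclear receptor of germ cells and embryos, had 5 matches and a TPM of 7.29 and 9.31, and HEMK1, also with 5, had 8.25 and 8.0. Among the others, the cohesin subunit SMC1A was the highest, at 358 and 399, and ZBTB37, at 1.9 and 3.29, was among the lowest with TRIM71. HIC2 was at 18.7 in both libraries, LIMD2 at 21.7 and 15.6, and IGDCC3 at 8.75 and 8.33. These are levels in a single condition, and whether let-7 acted on any of them was not measured.

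The fibroblast, blood and endothelial lists gave 2 of 6, 2 of 5 and 0 of 3 genes detected. COL1A1 (TPM 24.1 and 20.9), HBA1 (9.24 and 7.61; a gene with a near-identical copy, so uncertain) and KDR (0.37 and 0.47) were the highest of each, and the blood markers PTPRC and CD3E had 0 counts. In the neuronal list, UCHL1 was at 397 and 367, NEFM at 45.1 and 56.5 and INA at 18.8 and 21.0. MAP2 (0.44 and 0.83) and NEFH (0.25 and 0.23) were the neuronal markers that were not detected.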
